A study of Mus musculus with 18 samples.

Results

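Fast excitation and inhibition in the brain run through ligand-gated channels built from subunits. The genes examined here encode the AMPA (Gria), kainate (Grik) and NMDA (Grin) receptor subunits that bind glutamate or its co-agonist, and the subunits of the GABA-A receptor (Gabra, Gabrb, Gabrg, Gabrd, Gabre, Gabrq, Gabrp and the rho genes Gabrr), with the GABA-B receptor (Gabbr), which is not a channel but signals through G proteins. Members were chosen by symbol alone: 37 mouse symbols were named, and probe sets of the array that carried 1 of them as their only symbol were averaged per gene. This gave 31 genes with 69 probe sets, out of 18193 genes with 34945 probe sets in all. Of these genes, 15 encode glutamate receptor subunits, 15 GABA-A subunits and 1 a GABA-B subunit, and 10 had 1 probe set while 21 had several. The other symbols were not analysed here.

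Midbrain dopamine neurons receive glutamate from cortex, subthalamic nucleus and brainstem, which drives burst firing, and GABA from striatum, pallidum and local interneurons, which restrains it. An AMPA receptor is a tetramer of Gria subunits, and one that holds the edited Gria2 subunit passes little calcium. NMDA receptors need Grin1 beside Grin2 or Grin3 subunits, and most GABA-A receptors of the brain combine alpha, beta and gamma subunits around a chloride pore.

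The series compared dopamine neurons of the substantia nigra (SN), the cells lost in Parkinson disease, with those of the ventral tegmental area (VTA), which are lost less, after the toxin MPTP. Adult C57Bl/6 mice of a transgenic line called hTH-GFP were all housed singly for 9 weeks and received 4 mg/kg of MPTP over either 2 or 10 days, and controls received saline over 10 days. They were killed 7 days after the last injection. No saline group was injected over 2 days. In each difference of a 2 day group from saline, MPTP and the shorter course of injections therefore cannot be told apart. The labels describe the control samples as untreated, whereas the protocol and the design text describe saline. Neurons were cut out by laser capture and their RNA was amplified before hybridisation, which gave 6 groups (SN and VTA, each with saline, 2 days of MPTP and 10 days of MPTP) of 3 arrays that the design text calls biological replicates. The labels do not spell out the transgene, and they do not say how captured cells were recognised, how many mice an array holds or whether an SN and a VTA array share a mouse.

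The deposited values are log2 signals in which every probe set has a median of 0 over the 18 arrays, to within 5e-07. A value is therefore a difference from a gene's own midpoint: levels of different genes could not be ranked, and whether a subunit was above background at all is unknown. The spread of values on an array (the median absolute deviation over all probe sets) was 0.123 to 0.204 on 16 arrays. It was wider on 2, SN saline array 1 (0.235) and VTA 2 day array 1 (0.269). Beside several differences below the value without 1 of these arrays is given. Markers of the captured cells differed between groups, though none of them passed the test. The 14 dopamine neuron markers had a median difference from saline of -0.93 in SN after 2 days, -0.44 in SN after 10 days, -0.44 in VTA after 2 days and -0.17 in VTA after 10 days, with 0, 0, 1 and 1 genes above saline. The mean of these markers ran from 0.28 to 0.92 on the SN saline arrays, from -0.45 to -0.099 after 2 days and from -0.14 to 0.25 after 10 days. In SN after 2 days, all 5 measured glutamate neuron markers (median 0.67) and 7 of 9 astrocyte markers (median 0.26) were above saline. These were 4 of 5 (median 0.44) and 7 of 9 (median 0.23) without SN saline array 1. In VTA after 2 days the dopamine neuron median was -0.91 without VTA saline array 1. Astrocyte markers went the other way there, with array means of -0.013 to 0.15 with saline and -0.35 to -0.031 after 2 days. Oligodendrocyte precursor means in VTA were 0.19 to 0.33 with saline and -0.29 to 0.0045 after 2 days. Ependyma and choroid plexus means in SN were -0.63 to -0.11 with saline, -0.48 to 0.88 after 2 days and 0.15 to 1.08 after 10 days. Since values are centred, it cannot be said which defining markers were near 0. In captured tissue, fewer cells of a type and less RNA per cell cannot be told apart, and the part of these shifts in the receptor results was not tested.

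None of the 31 receptor genes passed the test in any of the 15 comparisons between groups (limma, Benjamini-Hochberg adjustment over 18193 genes, threshold 0.05). Few genes of any kind did. The share of all genes called was 0% for SN after 2 days, 0.0055% for SN after 10 days, 0.011% for VTA after 2 days and 0.011% for VTA after 10 days, each against saline. It was 0.0165% between the durations in SN and 0.033% in VTA, and 0% for the 3 comparisons of VTA with SN, for their mean and for both differences of response. Pooled over both regions, 0.0879% of genes were called for 2 days, 0.0385% for 10 days and 0.126% for 10 against 2 days. The smallest adjusted p of a receptor gene was 0.181, for Gria3 after 2 days in both regions together (limma). A receptor gene's difference between 2 groups had a 95% interval of ±0.43 on the log2 scale in the median (lowest 0.25, highest 0.81), so most differences described here lie within it. Of the 124 differences from saline (31 genes, 4 comparisons), 61 turned sign when some 1 of the 6 arrays involved was left out, and 63 kept it whichever was left out. At an unadjusted p under 0.05, limma gave 6 receptor genes for SN after 2 days, where 6.65% of all genes passed, 3 for SN after 10 days (5.57%), 2 for VTA after 2 days (8.06%) and 1 for VTA after 10 days (5.41%). Over both regions it gave 5 after 2 days (11.1%), 2 after 10 days (7.74%) and 1 for 10 against 2 days (6.99%). Between the durations it gave 0 in SN (3.02%) and 1 in VTA (6.34%). For VTA against SN it gave 2 with saline (4.36%), 0 after 2 days (2.79%), 1 after 10 days (2.99%) and 2 over the 3 treatments (4.2%).

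In SN after 2 days of MPTP, 20 of the 31 receptor genes were above saline, with a median difference of 0.17, against a median of -0.027 over all genes, of which 44.7% were above saline. This median was 0.10 without SN saline array 1 and 0.078 without SN 2 day array 3, and 19 to 22 genes were above saline when any 1 of these 6 arrays was left out. After 10 days in SN the median was 0.019 with 17 above saline. Without SN 10 day array 1 it was -0.074. In VTA it was 0.048 with 20 above saline after 2 days and 0.041 with 17 after 10 days. Between the durations in SN, 24 of 31 receptor genes were lower after 10 days than after 2 days (median -0.11), while the median over all genes was 0.0088.

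A plainer count asks whether all 3 arrays of one group lay beyond all 3 of another. In SN after 2 days, 7 receptor genes (22.6%) lay above saline without overlap, against 5.96% of all genes: Gria2, Gria3, Grik2, Grin3a, Gabra3, Gabrb1 and Gabrb2. Another 4 (12.9%) lay below without overlap, against 8.56% of all genes: Grik3, Grin2c, Gabra6 and Gabrp. Without SN saline array 1 the first count was 11, where 10.6% of all genes qualified, and the second stayed 4, where 15.5% did. With the most variable probe set of each gene in place of the mean, 4 genes lay above and 3 below, against 5.61% and 7.87% of all genes. The other treated groups had smaller counts above and below. In SN after 10 days, 3 lay above (9.68% against 5% of all genes) and 3 below (9.68% against 6.27%). With the most variable probe set these were 1 above, Grik1, and 2 below, Grik3 and Grin2c, where 5.15% and 5.86% of all genes qualified. In VTA after 2 days, 4 lay above (12.9% against 5.1%) and 0 below (0% against 4.92%). In VTA after 10 days, 2 lay above (6.45% against 4.77%) and 2 below (6.45% against 4.53%). Without VTA 2 day array 1, the VTA counts after 2 days were 6 above and 3 below, where 10.5% and 12.2% of all genes qualified. All treated groups of a region were compared with the same 3 saline arrays, so the 2 durations are not independent.

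**Figure D1:**
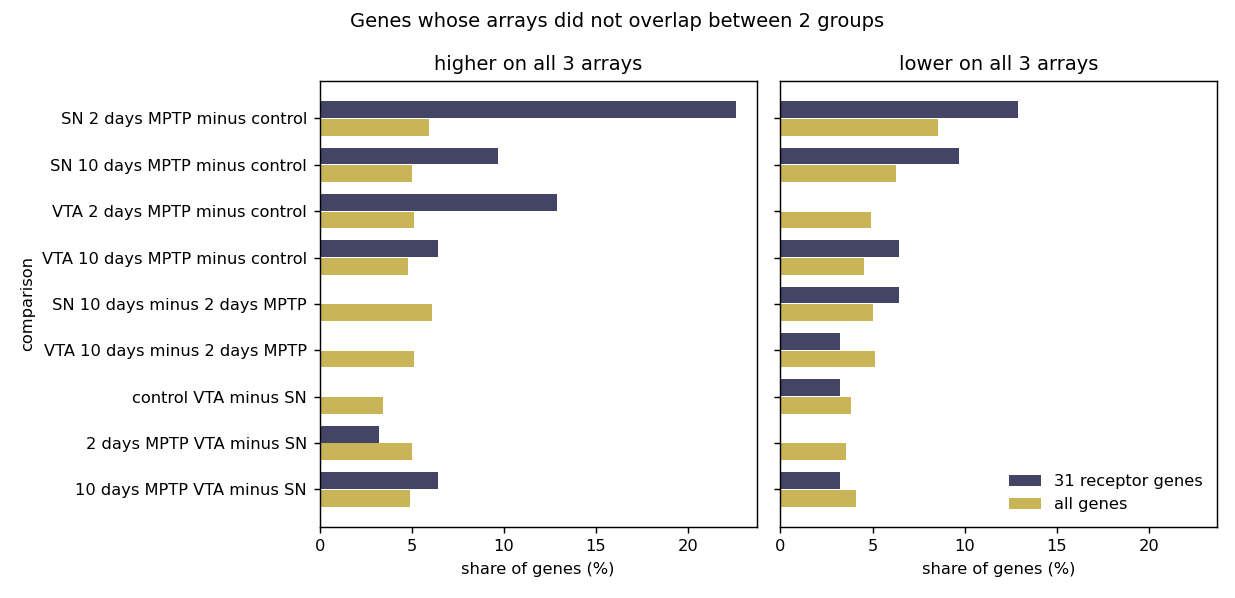
Share of genes, in %, whose 3 arrays in 1 group all lay above (left) or below (right) the 3 arrays of the other group, for 9 pairs of groups; dark bars are the 31 receptor genes and light bars all 18193 genes. The longest dark bar is SN after 2 days of MPTP, higher, at 22.6% against 5.96% of all genes.

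Promoter sequences are shown for 4 of these genes. Gria2 and Grik2 lay above saline without overlap in SN after 2 days. They were also the pair of receptor genes whose values went together most closely over all arrays. Grik3 and Grin2c were 2 of the 4 genes that lay below, and their correlation with group means removed was only 0.36. The sequences are from RefSeq (GRCm38.p6) and run from 250 bases before to 50 bases after the start of the gene, on its own strand; the places are chr3:80802786-80803085 (minus strand) for Gria2, chr10:49788705-49789004 (minus) for Grik2, chr4:125490446-125490745 (plus) for Grik3 and chr11:115267194-115267493 (minus) for Grin2c. Capitals mark matches on either strand to GGGCGG, the core of the GC box bound by Sp1, or to GGACAG, a stretch of the RE1 element bound by the repressor REST. The promoter of Gria2 is known for an RE1-type silencer.
Gria2: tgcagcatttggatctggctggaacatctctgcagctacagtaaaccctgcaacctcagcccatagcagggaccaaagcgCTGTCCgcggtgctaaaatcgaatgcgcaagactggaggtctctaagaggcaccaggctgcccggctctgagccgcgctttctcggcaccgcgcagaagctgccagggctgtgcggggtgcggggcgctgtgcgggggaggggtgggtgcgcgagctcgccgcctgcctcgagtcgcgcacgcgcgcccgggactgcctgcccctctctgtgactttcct
Grik2: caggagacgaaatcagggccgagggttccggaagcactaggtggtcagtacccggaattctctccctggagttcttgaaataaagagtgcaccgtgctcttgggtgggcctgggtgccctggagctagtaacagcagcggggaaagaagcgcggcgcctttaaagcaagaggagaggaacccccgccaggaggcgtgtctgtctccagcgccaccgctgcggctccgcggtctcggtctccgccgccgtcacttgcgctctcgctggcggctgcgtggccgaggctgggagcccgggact
Grik3: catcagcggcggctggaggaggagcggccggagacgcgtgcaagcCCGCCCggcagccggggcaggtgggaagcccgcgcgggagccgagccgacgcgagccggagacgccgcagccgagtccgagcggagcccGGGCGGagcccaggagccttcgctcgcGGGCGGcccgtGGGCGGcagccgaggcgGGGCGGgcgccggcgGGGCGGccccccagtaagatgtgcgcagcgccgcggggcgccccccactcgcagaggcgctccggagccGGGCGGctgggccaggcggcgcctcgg
Grin2c: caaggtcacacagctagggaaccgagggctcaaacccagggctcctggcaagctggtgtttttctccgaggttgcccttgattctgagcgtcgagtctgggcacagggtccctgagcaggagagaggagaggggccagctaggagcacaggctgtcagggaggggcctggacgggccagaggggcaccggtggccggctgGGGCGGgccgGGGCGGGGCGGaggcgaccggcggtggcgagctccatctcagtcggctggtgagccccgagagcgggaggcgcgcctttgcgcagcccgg

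The table of promoters held 28 entries for 24 of the 31 genes. Grik3 had 7 GC boxes and Grin2c 3, Gria2 had 1 GGACAG match, and Grik2 had neither. Gabra6 and Gabrp, the other genes below saline without overlap in SN after 2 days, had 0 GC boxes each. Of the other genes above, Gabra3 and Gabrb1 had 0, and Gabrb2 had 1 in its entry of 59.0% GC and 0 in its others. Gria3 and Grin3a had no entry. GGGCGG was present in 42.9% of the receptor promoters and in 35.7% of all 32851 promoters of this length, and GGACAG in 32.1% and 22.2%. The other RE1 stretch searched, CAGCACC, was in 3.57% of receptor promoters and 7.14% of all; the cyclic AMP response element TGACGTCA was in 0% and 1.79%, and TATAAA in 14.3% and 13.6%. All were searched on both strands. Median GC content was 58.8% for the receptor promoters and 52.7% for all, with 82.0% in Grik3, 70.0% in Grin2c, 65.7% in Gria2 and 64.7% in Grik2. Matches describe these letters only.

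AMPA receptor subunits had the highest family median after 2 days among families of more than 2 genes in both regions. All 4 genes were above saline in SN (median 0.35) and in VTA (median 0.20) after 2 days, and none passed the test. The mean of the AMPA genes per SN array was -0.20, -0.25 and -0.066 with saline, 0.037, 0.12 and 0.21 after 2 days and 0.11, 0.034 and -0.16 after 10 days. In SN after 2 days every array's AMPA mean was above every saline array, while 1 of the 10 day arrays lay within the saline range. The mean of the AMPA genes per VTA array was -0.061, -0.22 and -0.12 with saline, 0.0079, 0.26 and -0.043 after 2 days and 0.15, 0.042 and -0.14 after 10 days. In VTA all 2 day arrays again lay above saline, by less, and 1 of the 10 day arrays fell among the saline values.

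Gria2, the subunit that sets calcium permeability, had SN values of -0.26, -0.41 and -0.12 with saline, 0.12, 0.20 and 0.22 after 2 days and 0.20, 0.20 and -0.49 after 10 days. Its VTA values were -0.16, -0.42 and -0.20 with saline, -0.059, 0.25 and 0.0094 after 2 days and 0.12, 0.38 and -0.38 after 10 days. In both regions the 3 arrays after 2 days lay above all saline arrays, and the 10 day group held both the highest VTA value and, in SN, the lowest value of all groups of that region. The difference from saline after 2 days was 0.45 ± 0.20 (SE) in SN and 0.33 ± 0.20 in VTA, and 0.39 ± 0.14 over both regions, with adjusted p of 0.725, 0.736 and 0.300 (limma). After 10 days it was 0.23 ± 0.20 in SN and 0.30 ± 0.20 in VTA, and without array 3 of the region's 10 day group it was 0.46 and 0.52. Its 3 probe sets each gave a positive difference in SN after 2 days, from 0.34 to 0.63.

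Gria3, an X-linked AMPA subunit, showed the smallest adjusted p among the receptor genes. It read -0.47, -0.024 and -0.17 with saline, -0.012, 0.30 and 0.36 after 2 days and 0.25, -0.13 and -0.12 after 10 days in SN. In VTA it read 0.17, -0.26 and -0.083 with saline, 0.39, 0.44 and 0.17 after 2 days and -0.054, -0.26 and -0.092 after 10 days. The 2 day arrays were above saline without overlap in both regions, though the nearest arrays almost touched, and in VTA both round to 0.17. After 2 days the difference was 0.44 ± 0.16 in SN and 0.39 ± 0.16 in VTA, with adjusted p of 0.673 and 0.579 (limma), and over both regions it was 0.42 ± 0.12. Without SN saline array 1 the SN difference was 0.31. In VTA the 10 day arrays lay below the 2 day arrays without overlap, with a difference of -0.47 ± 0.16 (adjusted p 0.671, limma). Gria3 was the 1 receptor gene to do so, against 5.13% of all genes, and 0 lay above (5.11%). Over both regions the 10 day arrays differed from the 2 day arrays by -0.34 ± 0.12 (adjusted p 0.475, limma). The 2 probe sets of Gria3 both gave positive differences after 2 days, from 0.27 to 0.61 in SN and from 0.33 to 0.45 in VTA.

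Gria1, the subunit added to dopamine neuron synapses in several forms of plasticity, had SN values of -0.079, -0.39 and -0.20 with saline, -0.12, 0.12 and 0.14 after 2 days and -0.16, 0.042 and 0.078 after 10 days. In VTA they were -0.44, -0.27 and 0.075 with saline, -0.86, 0.51 and -0.055 after 2 days and 0.20, 0.23 and 0.11 after 10 days. The 3 VTA arrays after 10 days all lay above saline, while VTA 2 day array 1 was the lowest of the 18 arrays. Differences from saline were 0.27 ± 0.24 and 0.21 ± 0.24 in SN and 0.075 ± 0.24 and 0.39 ± 0.24 in VTA, after 2 and 10 days. Without VTA 2 day array 1 the VTA difference after 2 days was 0.44. Gria4, the other member of the family, had differences of 0.0090 ± 0.21, -0.012 ± 0.21, 0.041 ± 0.21 and -0.022 ± 0.21 in the same order, with overlapping arrays throughout. Its 95% interval in SN after 2 days ran from -0.44 to 0.46, which still holds the values of Gria2 and Gria3.

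**Figure D2:**
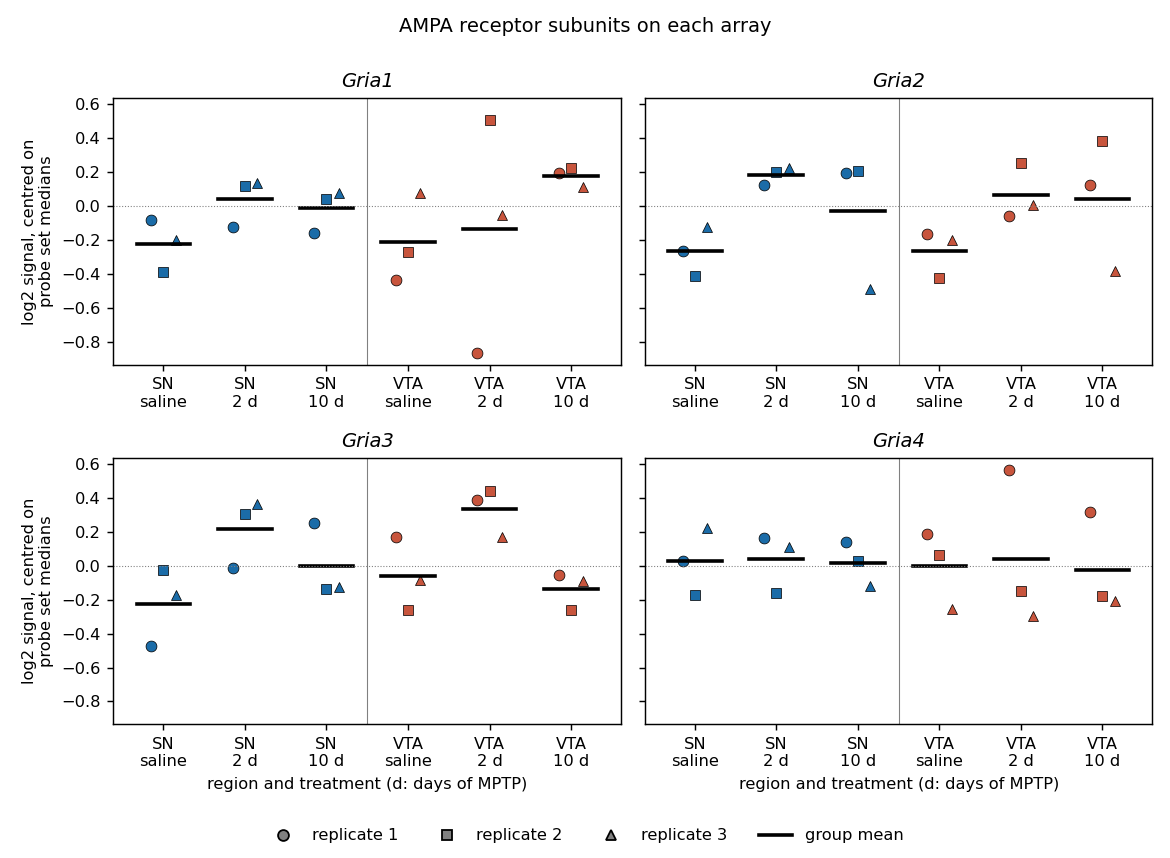
Centred log2 signal of the 4 AMPA subunit genes (vertical axis) on each of 18 arrays by region and treatment (horizontal axis); symbols give the replicate number and black bars the mean of 3 arrays. Gria2 and Gria3 have all 2 day arrays above the saline arrays in SN (differences 0.45 and 0.44) and in VTA (0.33 and 0.39), whereas Gria4 shows no such offset.

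Kainate receptor subunits differed in direction. Grik1, Grik2 and Grik3 are the low-affinity subunits that can form channels alone, and Grik4 and Grik5 are high-affinity subunits that need them as partners. The family median was 0.15 in SN and 0.064 in VTA after 2 days, and 0.024 and 0.11 after 10 days, with no gene past the test. Grik2 read -0.35, -0.33 and -0.26 with saline, 0.0066, 0.18 and 0.15 after 2 days and -0.017, 0.34 and -0.59 after 10 days in SN. All SN arrays after 2 days were above saline, but the 10 day group held both the highest and the lowest SN values. Its difference in SN after 2 days was 0.43 ± 0.24 (adjusted p 0.797, limma), and in VTA it was 0.022 ± 0.24 with overlapping arrays.

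Grik3 lay on the other side of saline. Its SN values were 0.43, 0.11 and 0.15 with saline, -0.13, -0.14 and -0.18 after 2 days and -0.34, -0.38 and 0.013 after 10 days. In VTA they were -0.13, 0.34 and 0.071 with saline, -0.22, -0.27 and 0.20 after 2 days and 0.017, -0.13 and 0.16 after 10 days. Every treated SN array lay below every SN saline array, while the VTA groups overlapped. The difference from saline in SN was -0.38 ± 0.16 after 2 days and -0.46 ± 0.16 after 10 days, with adjusted p of 0.713 and 0.840 (limma), and in VTA it was -0.19 ± 0.16 and -0.078 ± 0.16. Its 2 probe sets both gave negative differences in SN after 2 days (-0.49 and -0.27), although over the arrays of all groups they did not vary together (r = -0.0062). In VTA after 2 days the probe sets had opposite signs (-0.52 and 0.14).

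Grik1 stood out after 10 days in both regions. It read -0.14, -0.27 and -0.46 with saline, -0.38, 0.0058 and -0.036 after 2 days and 0.66, 0.040 and -0.10 after 10 days in SN. In VTA it read -0.27, -0.21 and -0.11 with saline, -0.998, 0.39 and 0.36 after 2 days and 0.85, 0.21 and 0.027 after 10 days. All 10 day arrays were above saline in each region, with array 1 far above the other two, and VTA 2 day array 1 was the lowest of all. Differences after 10 days were 0.49 ± 0.31 in SN and 0.56 ± 0.31 in VTA, and 0.52 ± 0.22 over both, with adjusted p of 0.941, 0.920 and 0.596 (limma). Leaving out the first 10 day array of a region brought them to 0.26 in SN and 0.31 in VTA. After 2 days the difference in VTA was 0.11 ± 0.31, and 0.57 without VTA 2 day array 1. The 2 probe sets of Grik1 had opposite signs after 2 days, at -0.21 and 0.51 in SN and -0.36 and 0.58 in VTA.

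Grik5 had VTA values of -0.48, -0.14 and 0.14 with saline, 0.30, 0.18 and 0.23 after 2 days and -0.036, 0.43 and 0.036 after 10 days. Its VTA arrays after 2 days lay close together and above saline, by 0.40 ± 0.19 (adjusted p 0.635, limma), and this was 0.23 without VTA saline array 1. In SN the values were -0.37, -0.21 and 0.060 with saline, 0.22, -0.074 and -0.063 after 2 days and -0.60, -0.27 and 0.059 after 10 days, with overlap between all groups and differences of 0.20 ± 0.19 and -0.10 ± 0.19. Grik4 differed little from saline in any group, between -0.0010 ± 0.14 in SN after 2 days and 0.11 ± 0.14 in VTA after 10 days, and is taken up with the regions.

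NMDA receptor subunits held the largest single differences of the receptor genes in SN and in VTA after 2 days and between the regions in saline mice. Grin3a, which lowers calcium entry when it joins the receptor, had SN values of -0.64, -0.65 and -0.21 with saline, 0.23, -0.045 and 0.33 after 2 days and -0.20, 0.042 and 0.026 after 10 days. Its VTA values were -0.24, 0.43 and 0.028 with saline, 0.028, -0.0058 and 0.055 after 2 days and 0.085, -0.25 and -0.16 after 10 days. In SN all treated arrays lay above all saline arrays, narrowly so after 10 days, and the VTA groups overlapped. The difference from saline in SN was 0.68 ± 0.17 after 2 days, a ratio of 1.60, and 0.46 ± 0.17 after 10 days, with adjusted p of 0.530 and 0.879 (limma). In VTA it was -0.047 ± 0.17 and -0.18 ± 0.17. The SN difference after 2 days was 0.60 to 0.82 when any 1 array was left out, and its 3 probe sets gave 0.60 to 0.75.

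Grin2c, a subunit best known from cerebellar granule cells and astrocytes, was lower in VTA than in SN with saline, but not after MPTP. Its group means in VTA and SN were 0.090 and 0.015 after 2 days and 0.012 and -0.18 after 10 days, with overlapping arrays. It read 0.41, 0.27 and 0.16 with saline, -0.031, 0.046 and 0.031 after 2 days and -0.21, -0.12 and -0.23 after 10 days in SN. In VTA it read -0.61, -0.17 and -0.49 with saline, 0.36, -0.18 and 0.087 after 2 days and -0.21, 0.10 and 0.15 after 10 days. In SN the 3 groups did not overlap, with saline highest and 10 days lowest, while in VTA saline was the lower group and 1 array after 2 days and 1 after 10 days reached into its range. The SN difference was -0.27 ± 0.15 after 2 days and -0.47 ± 0.15 after 10 days, and the VTA difference 0.51 ± 0.15 and 0.44 ± 0.15, with adjusted p of 0.801, 0.833, 0.406 and 0.781 (limma). The VTA response minus the SN response was 0.78 ± 0.22 after 2 days and 0.90 ± 0.22 after 10 days, which did not pass the test of the difference itself (adjusted p 0.9999 and 0.99996, limma), where 0% of all genes did. Grin2c had 1 probe set. It was 1 of 2 receptor genes, with Gabrr2, whose SN arrays after 10 days all lay below those after 2 days, against 5.02% of all genes; 0 lay above (6.1%).

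Grin2b, a main partner of Grin1 in the forebrain with slow channel closing, had SN values of 0.35, -0.28 and -0.38 with saline, 0.23, 0.090 and 0.24 after 2 days and 0.33, -0.31 and -0.20 after 10 days. In VTA they were 0.036, -0.28 and -0.65 with saline, 0.29, 0.23 and -0.46 after 2 days and 0.34, 0.13 and -0.051 after 10 days. All groups overlapped, and array 1 was the highest in 5 of 6 groups. Differences from saline were 0.29 ± 0.24 and 0.044 ± 0.24 in SN and 0.32 ± 0.24 and 0.44 ± 0.24 in VTA, the last with an adjusted p of 0.920 (limma). Without SN saline array 1 the SN differences were 0.52 and 0.27, and without VTA 2 day array 1 the VTA difference after 2 days was 0.18. Grin2d, the subunit that pairs with Grin2b in adult midbrain dopamine neurons, ranged from -0.42 to 1.00 over the 18 arrays, and its differences were -0.12 ± 0.31, -0.13 ± 0.31, 0.18 ± 0.31 and -0.028 ± 0.31. Those of Grin2d in SN were 0.17 and 0.16 without SN saline array 1, and the one in VTA after 2 days was -0.18 without VTA 2 day array 1, so each of the 3 had the opposite sign.

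Grin2a, the subunit of faster NMDA receptors, was the most scattered of the NMDA genes. Its SN values were 0.56, -0.67 and 0.012 with saline, 0.059, 0.59 and 0.55 after 2 days and 0.12, -0.81 and -0.38 after 10 days. In VTA they were -0.11, -0.52 and -0.012 with saline, -1.11, 0.70 and -0.39 after 2 days and -0.061, 0.023 and 0.20 after 10 days. The saline arrays of SN alone spanned most of the range seen in that region, and VTA 2 day array 1 was the lowest of all. Between the durations in SN the difference was -0.76 ± 0.38, with overlapping arrays and an adjusted p of 0.9998 (limma). Grin3b ranged from -0.21 to 0.46, with differences from saline between -0.12 ± 0.15 in SN after 2 days and 0.16 ± 0.15 in VTA after 2 days. The Grin3b difference in SN was 0.077 after 2 days and 0.13 after 10 days without SN saline array 1.

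**Figure D3:**
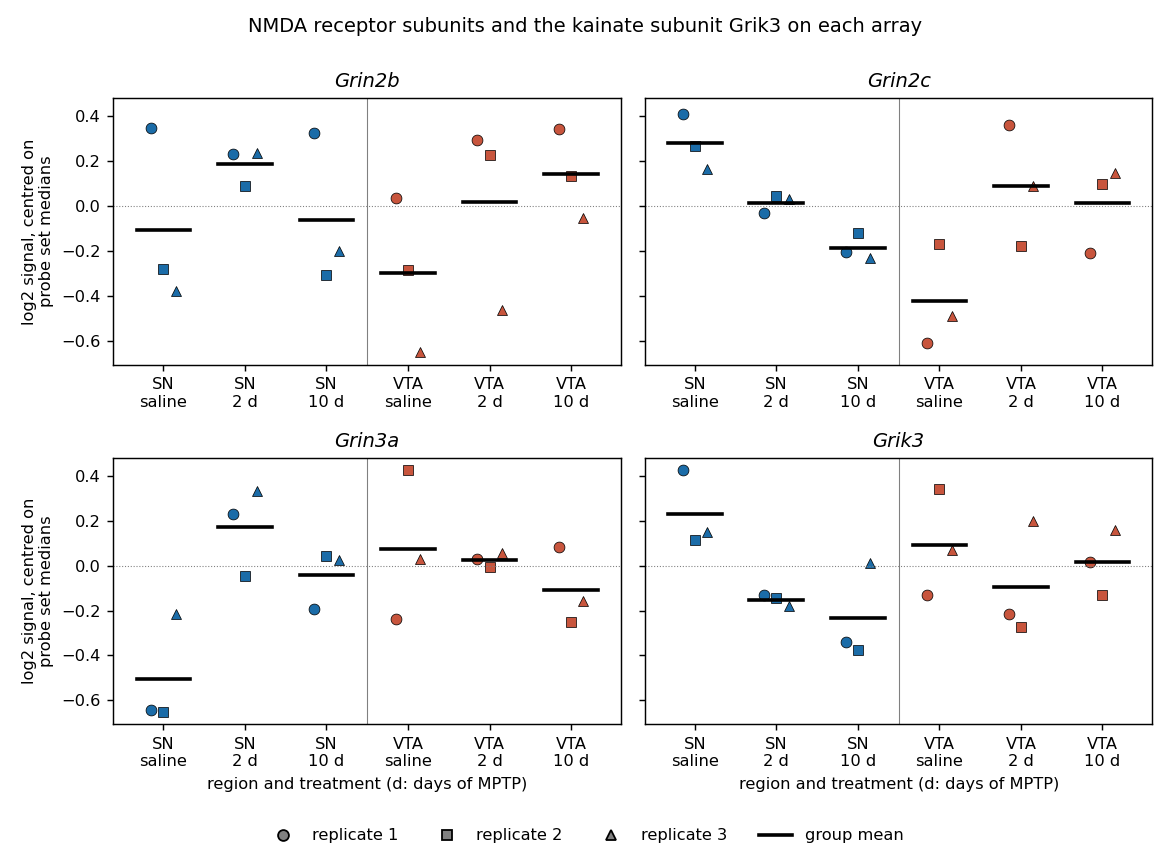
Centred log2 signal of Grin2b, Grin2c, Grin3a and Grik3 (vertical axis) on each array by region and treatment (horizontal axis); symbols give the replicate number and black bars the mean of 3 arrays. In SN, treated arrays lie above saline for Grin3a (difference after 2 days 0.68) and below it for Grik3 (-0.38) and Grin2c (-0.27), while in VTA Grin2c is higher after 2 days (0.51).

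GABA-A alpha subunits decide much of a receptor's drug sensitivity and place on the cell. The 5 genes had a median of 0.18 in SN and -0.096 in VTA after 2 days, and of 0.0094 and -0.13 after 10 days, none past the test. Gabra3, the alpha subunit described in many midbrain dopamine neurons, had SN values of -0.78, -0.11 and -0.10 with saline, -0.020, 0.088 and 0.13 after 2 days and 0.032, 0.056 and -0.055 after 10 days. All treated SN arrays were above all saline arrays, of which array 1 was far below the others. The difference was 0.40 ± 0.17 after 2 days and 0.34 ± 0.17 after 10 days, with adjusted p of 0.714 and 0.910 (limma). Without SN saline array 1 these were 0.17 and 0.11, so most of the size came from that array. In VTA Gabra3 read 0.12, -0.30 and -0.0092 with saline, -0.18, 0.054 and -0.35 after 2 days and 0.0030, -0.026 and 0.044 after 10 days, with overlapping groups and differences of -0.10 ± 0.17 and 0.070 ± 0.17. Its 2 probe sets did not vary together over the arrays (r = -0.19), although both were above saline in SN after 2 days (0.22 and 0.57).

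Gabra6, known almost solely from cerebellar granule cells, had SN values of 0.21, 0.30 and 0.16 with saline, 0.034, -0.12 and -0.022 after 2 days and -0.081, 0.015 and 0.050 after 10 days. Every treated SN array lay below the saline arrays. The difference was -0.26 ± 0.12 after 2 days and -0.23 ± 0.12 after 10 days, with adjusted p of 0.742 and 0.925 (limma), and in VTA it was -0.10 ± 0.12 and -0.13 ± 0.12 with overlap. Without VTA 2 day array 1 the VTA difference of Gabra6 after 2 days was -0.20, and the arrays then did not overlap.

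Gabra4, often found outside synapses, had VTA values of 0.18, 0.22 and -0.19 with saline, -1.08, 0.28 and 0.13 after 2 days and -0.20, -0.58 and -0.19 after 10 days. The VTA arrays after 10 days lay below saline without overlap, although the nearest arrays of the groups both round to -0.19, and VTA 2 day array 1 was far below all others. The difference in VTA after 10 days was -0.40 ± 0.27 (adjusted p 0.935, limma). After 2 days in VTA it was -0.29 ± 0.27, and 0.13 without VTA 2 day array 1. In SN its differences were 0.18 ± 0.27 and 0.0094 ± 0.27. Gabra5 differed from saline by 0.43 ± 0.29 in SN after 2 days, where saline arrays ran from -0.78 to 0.051, and by 0.20 without SN saline array 2. Gabra2 differed by -0.0085 ± 0.17 and -0.14 ± 0.17 in SN and -0.043 ± 0.17 and -0.15 ± 0.17 in VTA.

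Both measured beta subunits, which every common GABA-A receptor contains, were above saline in SN after 2 days. Gabrb1 had SN values of 0.038, -0.48 and -0.43 with saline, 0.12, 0.092 and 0.13 after 2 days and -0.025, 0.26 and -0.30 after 10 days. Gabrb2 had SN values of -0.079, -0.35 and 0.011 with saline, 0.16, 0.10 and 0.31 after 2 days and 0.29, -0.086 and -0.14 after 10 days. For each gene the 2 day arrays lay above all saline arrays, and the 10 day arrays spread over both. The differences after 2 days were 0.40 ± 0.20 and 0.33 ± 0.20, with adjusted p of 0.753 and 0.817 (limma), and after 10 days 0.27 ± 0.20 and 0.16 ± 0.20. Every probe set agreed in sign in SN after 2 days: 4 for Gabrb1 gave 0.26 to 0.48 and 5 for Gabrb2 gave 0.22 to 0.42. In VTA after 2 days the differences were 0.072 ± 0.20 and 0.040 ± 0.20 with overlapping arrays.

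Of the gamma subunits, which link receptors to the benzodiazepine site and to synapses, Gabrg1 differed from saline by 0.17 ± 0.20 and 0.15 ± 0.20 in SN and 0.15 ± 0.20 and -0.010 ± 0.20 in VTA. Gabrg3 differed by 0.043 ± 0.22, 0.081 ± 0.22, 0.048 ± 0.22 and -0.26 ± 0.22 in that order, with probe sets of opposite sign in both regions after 2 days. Arrays of both genes overlapped in all 4 comparisons.

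Gabrd, the subunit of receptors that carry tonic inhibition, read -1.45, 0.42 and -0.11 with saline, -0.57, 0.092 and 0.22 after 2 days and -0.16, -0.63 and 0.20 after 10 days in SN. In VTA it read 0.029, -0.46 and -0.46 with saline, 0.14, 0.26 and 0.17 after 2 days and -0.37, -0.71 and 0.32 after 10 days. SN saline array 1 was the lowest of all arrays, and the VTA 2 day arrays lay above saline without overlap. The difference there was 0.49 ± 0.38 (adjusted p 0.807, limma), and after 10 days 0.041 ± 0.38. Gabrp, a subunit known mainly outside the brain, was below saline without overlap in SN after 2 days, with a difference of -0.26 ± 0.15 (adjusted p 0.801, limma), with 2 day arrays at -0.094, -0.13 and -0.17 against 0.36, 0.030 and -0.012 for saline. The Gabrp difference was -0.14 without SN saline array 1. Gabre and Gabrq, which lie close to Gabra3 on the X chromosome, had differences in SN after 2 days of -0.020 ± 0.33 and 0.058 ± 0.25. In VTA after 2 days the Gabre difference was -0.37 ± 0.33 with overlapping arrays, and Gabre spread from -0.71 to 0.78 over VTA saline arrays alone.

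The rho subunits form the GABA channels of the retina. Gabrr2 had VTA values of 1.02, 0.0028 and 0.14 with saline, 0.061, 0.36 and -0.44 after 2 days and -0.22, -0.065 and -0.095 after 10 days. The VTA arrays after 10 days lay just below saline, whose array 1 was far above the rest. The difference was -0.51 ± 0.29 (adjusted p 0.923, limma), and -0.20 without VTA saline array 1. In SN the values were -0.29, 0.71 and -0.28 with saline, 0.57, 0.44 and 0.045 after 2 days and -0.42, -0.0028 and -0.25 after 10 days. There all 10 day arrays lay below the 2 day arrays, with a difference of -0.58 ± 0.29. Gabrr1 differed from saline by -0.034 ± 0.22 in SN and -0.17 ± 0.22 in VTA after 2 days.

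Gabbr1, the ligand-binding subunit of the GABA-B receptor that mediates slow inhibition of dopamine neurons, had the narrowest range of the set. It read 0.25, -0.041 and -0.0071 with saline, 0.18, 0.049 and -0.058 after 2 days and 0.16, -0.076 and -0.094 after 10 days in SN. In VTA it read 0.14, -0.043 and 0.014 with saline, 0.073, -0.052 and -0.070 after 2 days and 0.12, -0.046 and -0.00062 after 10 days. In every group array 1 was the highest. Differences from saline were -0.011 ± 0.12 and -0.072 ± 0.12 in SN and -0.053 ± 0.12 and -0.012 ± 0.12 in VTA. Each has a 95% interval of ±0.25, and its 4 probe sets differed in sign (-0.26 to 0.19 in SN after 2 days), so its mean joins probe sets that did not vary together.

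**Figure D4:**
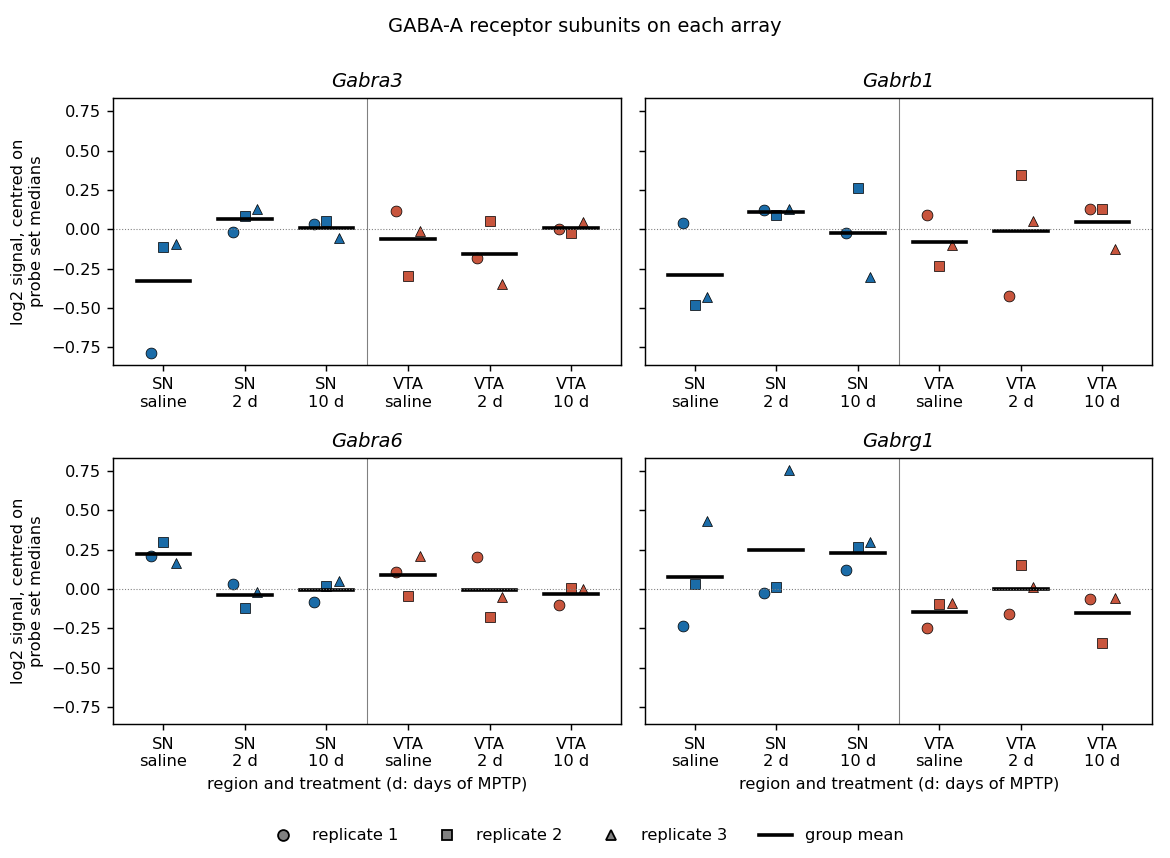
Centred log2 signal of the GABA-A subunit genes Gabra3, Gabrb1, Gabra6 and Gabrg1 (vertical axis) on each array by region and treatment (horizontal axis); symbols give the replicate number and black bars the mean of 3 arrays. In SN, Gabra3 and Gabrb1 lie above saline after 2 days (0.40 for each) and Gabra6 below (-0.26), and after 10 days Gabrg1 is lower in VTA than in SN (-0.38).

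Responses of the same gene in the 2 regions were set side by side. After 2 days, 15 of 31 receptor genes were above saline in both regions, 6 below in both and 10 opposite, and 58.8% of all genes had the same sign in both. After 10 days the counts were 11, 8 and 12, and 57% of all genes had the same sign. The correlation between SN and VTA differences over the 31 genes was 0.13 (Spearman 0.18) after 2 days and 0.15 (0.18) after 10 days, against 0.35 and 0.26 over all genes; genes share arrays and are not independent, so this is a description. The genes with the same sign after 2 days included Gria2, Gria3 and Grik3, and Grin2c and Grin3a were the clearest of those that did not. For Grin3a the VTA response minus the SN response was -0.72 ± 0.25 after 2 days and -0.64 ± 0.25 after 10 days (adjusted p 0.9999 and 0.99996, limma). At an unadjusted p under 0.05 the test of the difference of response took 2 receptor genes at each duration, Grin2c and Grin3a, where 3.3% and 3.17% of all genes passed.

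**Figure D5:**
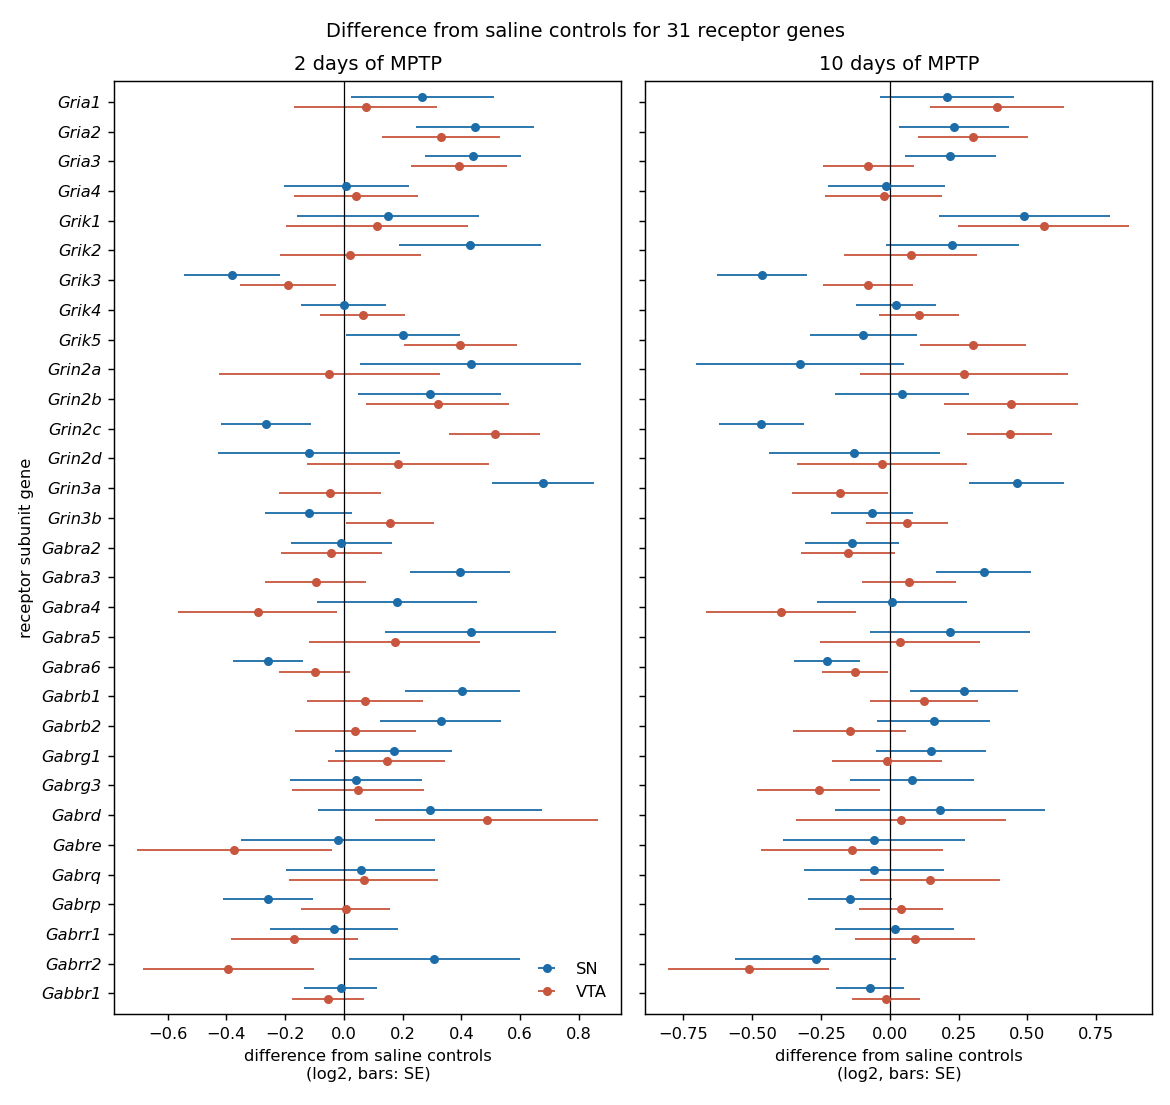
Difference from saline controls (log2, horizontal axis) for each of the 31 receptor genes (vertical axis) after 2 days (left) and 10 days (right) of MPTP, in SN and VTA; points are differences of means of 3 arrays and bars the SE of the model. Gria2 and Gria3 are positive in both regions after 2 days, while Grin2c is negative in SN (-0.27) and positive in VTA (0.51).

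Between the regions in saline mice, 20 of 31 receptor genes were higher in VTA (median 0.084; all genes -0.00019) and none passed the test. Grin2c was lower in VTA without overlap, where 3.84% of all genes were, and 0 receptor genes were higher without overlap (3.46% of all genes). The Grin2c difference was -0.70 ± 0.15 (adjusted p 0.611, limma), from -0.83 to -0.61 when 1 array was left out. Grin3a was higher in VTA by 0.58 ± 0.17 and Gabra3 by 0.27 ± 0.17, the latter 0.040 without SN saline array 1. These saline arrays are the same ones that the responses of Grin2c, Grin3a and Gabra3 are measured from, so a region difference in saline and an opposite response are not separate results. Over the same arrays, dopamine neuron markers were lower in VTA for 11 of 14 genes (median -0.34), and all 9 astrocyte markers were higher (median 0.16). The dopamine median was 0.062, with 7 of 14 genes lower, without VTA saline array 1, and -0.066, also with 7 of 14 lower, without SN saline array 1. The astrocyte markers then had 8 and 7 of 9 higher (medians 0.14 and 0.12).

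Some genes, among them Grik4 and Gabrg1, kept the same order of regions in every treatment. The share of all genes that did so was not counted. Grik4 was higher in VTA by 0.18 ± 0.14 with saline, 0.24 ± 0.14 after 2 days and 0.26 ± 0.14 after 10 days, and by 0.23 ± 0.084 over the 3 treatments (adjusted p 0.972, limma). Its SN values were 0.015, -0.38 and -0.066 with saline, -0.13, 0.0022 and -0.30 after 2 days and -0.22, -0.075 and -0.061 after 10 days. In VTA they were -0.21, 0.065 and 0.24 with saline, 0.12, 0.18 and -0.0022 after 2 days and 0.10, 0.29 and 0.035 after 10 days. The regions did not overlap after 10 days and overlapped in the other treatments. After 10 days Gria1 was also higher in VTA without overlap, where 4.88% of all genes were, and Gabrg1 lower, where 4.12% were. After 2 days Grin3b was higher without overlap (4.99% of all genes), with 0 receptor genes lower (3.55%). Gabrg1 had SN values of -0.23, 0.033 and 0.43 with saline, -0.025, 0.0099 and 0.76 after 2 days and 0.12, 0.26 and 0.30 after 10 days. In VTA they were -0.25, -0.094 and -0.091 with saline, -0.16, 0.15 and 0.015 after 2 days and -0.065, -0.34 and -0.055 after 10 days. Apart from the 10 day groups the regions overlapped, and the difference over the 3 treatments was -0.28 ± 0.11 (adjusted p 0.972, limma). On average over the 3 treatments, all 5 kainate genes were higher in VTA (median 0.10), where 52.6% of all genes were. So were the 4 GABA-A genes Gabrd, Gabre, Gabrq and Gabrp (median 0.11). Not all of them kept this order in every treatment. Of the kainate genes, 4 were higher with saline, 4 after 2 days and 5 after 10 days, and of the 4 GABA-A genes 3 were in each.

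How the receptor genes varied together was described with the group means removed, over the 18 arrays. The 465 pairs had a median correlation of 0.022, and the 50 pairs within a family had 0.025, nearly the same. The highest value was 0.86, between Gria2 and Grik2, which was 0.85 without the 2 wide arrays. Gria4 and Gabrb2 followed with 0.79 (0.83 without them), Grin2b and Gabrb2 with 0.76 (0.81) and Gria3 and Gabra3 with 0.75 (0.72). Grik1 and Gabra4 had 0.83, which dropped to 0.52 without the wide arrays. At the other end, Gabra4 and Gabra6 had -0.81 (-0.60), Grik3 and Gabra3 -0.73 (-0.81), and Gria2 and Grik3 -0.65 (-0.77). The points share arrays and amplification, and no test was made.

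Many GABA-A genes lie side by side in the genome. In the RefSeq gene order (GRCm38.p6) Gabra4 and Gabrb1 are adjacent on chromosome 5, as are Gabra2 and Gabrg1 there, Gabra6 and Gabrb2 on chromosome 11, Gabra5 and Gabrg3 on chromosome 7, Gabra3 and Gabrq on X, and Gabrr1 and Gabrr2 on chromosome 4, each with 0 protein-coding genes between. Such neighbours had correlations of 0.51 (Gabra4 and Gabrb1; -0.048 without the 2 wide arrays), 0.30 (Gabrr1 and Gabrr2), 0.058 (Gabra2 and Gabrg1), -0.079 (Gabra3 and Gabrq), -0.15 (Gabra6 and Gabrb2) and -0.44 (Gabra5 and Gabrg3). In SN after 2 days the neighbours Gabra6 and Gabrb2 lay on opposite sides of saline, without overlap in either case.

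Probe sets of the same gene gave a measure of how far a gene's mean can be trusted. Over the 21 genes with several, the median correlation between probe sets was 0.38 (65 pairs), from -0.19 for Gabra3 to 0.68 for Gria1, and it was below 0 for Grik3, Grin2d, Gabra3 and Gabbr1. All probe sets of a gene had the same sign in 14 of 21 genes for SN after 2 days and in 9 of 21 for VTA. Tested singly, 0 of the 69 receptor probe sets passed in any comparison (limma over 34945 probe sets, smallest adjusted p 0.181).

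Genes that serve these receptors were listed by role, and none of them passed the test in the 4 comparisons with saline. Among scaffold proteins of glutamate synapses, 14 of 18 measured genes were above saline in SN (median 0.25) and 14 of 18 in VTA (median 0.11) after 2 days, and 11 and 15 after 10 days (medians 0.046 and 0.11). Camk2a, the kinase that phosphorylates AMPA receptors and also a glutamate neuron marker, differed by 0.52 ± 0.17 in SN and 0.53 ± 0.17 in VTA after 2 days (adjusted p 0.646 and 0.435, limma). Grip1, a scaffold that binds the tails of Gria2 and Gria3, differed by 0.51 ± 0.12 in VTA after 10 days (adjusted p 0.441, limma), and Grip2, its relative, by -0.58 ± 0.19 in SN after 2 days. Without SN saline array 1 the SN median of the scaffold genes after 2 days was 0.12, with 12 of 18 above saline. Of the auxiliary subunits of AMPA and kainate receptors, 7 of 12 were above saline in SN (median 0.10) and 6 of 12 in VTA (median -0.0019); Gsg1l, which slows AMPA receptor recovery, was at -0.63 ± 0.25 in SN.

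Genes for packing and clearing glutamate were above saline in SN after 2 days in 7 of 7 cases (median 0.32) and in VTA in 2 of 7 (median -0.013). The transporters Slc1a3 and Slc1a2 differed by 0.45 ± 0.17 and 0.32 ± 0.14 in SN, and the vesicle transporter Slc17a7 by 0.67 ± 0.30; the first pair are also astrocyte markers and the last a marker of glutamate neurons, lists that were above saline in SN as given above. All 7 packing and clearing genes were also above saline without SN saline array 1 (median 0.27). All 6 measured metabotropic glutamate receptor genes were above saline in SN after 2 days (median 0.17), led by Grm5 at 0.52 ± 0.19 (adjusted p 0.646, limma), and 3 of 6 in VTA (median -0.097). The SN median of the metabotropic genes was 0.024 without SN saline array 1, with 3 of 6 above saline, and lay between 0.0047 and 0.44 over the arrays left out in turn. In VTA it was -0.40 without VTA 2 day array 1. The delta and glycine receptor genes had medians of 0.15 in SN and -0.056 in VTA after 2 days, and 0.049 and -0.20 without the wide array of each region.

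On the GABA side, scaffold and trafficking genes had 8 of 12 above saline in SN after 2 days (median 0.038; -0.015 with 6 of 12 without SN saline array 1), 2 of 12 after 10 days (median -0.14), and 4 of 12 in VTA at either time (medians -0.067 and -0.086). Trak2, a motor adaptor that binds GABA-A receptors, was at 0.47 ± 0.16 in SN after 2 days (adjusted p 0.646, limma). Of the 5 measured genes for GABA synthesis, packing and uptake, 2 were above saline in SN after 2 days and 0 after 10 days (median -0.093), with the vesicle transporter Slc32a1 at -0.47 ± 0.20 and -0.57 ± 0.20. The chloride transporters Slc12a5, which keeps chloride low in mature neurons, and Slc12a2, which brings it in, differed by 0.11 ± 0.19 and 0.057 ± 0.19 in SN after 2 days. Markers of GABA neurons were near saline in that group (4 of 9 above, median -0.018).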

How the data were processed

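Signals of 45101 Affymetrix probe sets on 18 arrays were taken from the deposited table. Per the labels' design text, the authors made these log2 values by RMA in Agilent GeneSpring GX 10.0; the submitters' processing notes name RMA as well. Centring on each probe set's median was found in the deposited values and is stated in no source. Background correction and filters: not given in the sources used here. No filter on low values was possible, so all 31 receptor genes entered every test.

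Probe sets were named through the platform annotation, which can be old, and the log2 values of a gene's probe sets were averaged. Groups were taken from the sample labels. A single linear model with a mean for each of the 6 groups was fitted to the 18 arrays (limma 3.58.1, R 4.3.3; lmFit, eBayes), leaving 12 residual degrees of freedom beside 4.06 prior ones. p-values are two-sided, with Benjamini-Hochberg adjustment over 18193 genes within each of 15 comparisons and a threshold of 0.05. The script was tested on simulated data. Errors are standard errors of this model with 3 arrays per group, whose number limits the precision; p-values measure only the spread between these arrays.

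Members, gene lists and tests were chosen with earlier results of these data known. Every receptor gene is accounted for by family. Named in each comparison are genes past the threshold and up to 3 each way of smallest p, with Gria1, Gria2, Grin2b, Grin2d, Gabra3 and Gabbr1 always eligible, and up to 3 of smallest p per partner list; genes whose arrays did not overlap, and the other members with their values, were named after these were seen. Same-numbered arrays of 2 groups had deviations from group means that correlated between -0.14 and 0.36 over the 9 pairs of groups. All 3 correlations were above 0.1 (0.29 to 0.36) for the 10 day arrays of SN and VTA alone. In all 3 comparisons of VTA with SN, each VTA array correlated best with the SN array of its own number. Own numbers also matched best for SN after 2 days against saline and for VTA between the durations. The main fit used no pairing. A fit with the replicate number as a block over all groups called 0 receptor genes. So did a fit with same-numbered SN and VTA arrays of a treatment as random blocks (correlation 0.19). Alternatives were other probe set rules, fits, normalisations and the omission of arrays. Recounts of genes without overlap, and medians, list medians and differences of all members without single arrays, were chosen after seeing the data. Figures were drawn with matplotlib 3.10.9.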

Additional observations from a re-analysis of the deposited data

How the results depend on the processing

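The count of receptor genes past the threshold was 0 in each of the 15 comparisons and also in all 297 recalculated values, over 29 alternative settings of which 18 left out 1 array (smallest adjusted p 0.0955, limma); leaving out each array in turn gave 0 to 0. The fit with the replicate number as a block gave 0 receptor genes and changed no call. Of 1692 recalculated values of named receptor genes, 1679 kept their sign, and of 2808 for family medians 2720 moved by less than the spread between arrays. These counts do not measure stability. The named genes were picked by smallest p, and several settings changed only the error estimate, which leaves every difference as it was. Signs turned in 13 of these 1692, and the cause was not tested. Over all 31 receptor genes and 15 comparisons, 230 of 465 differences turned sign when some 1 array was left out (523 of 4092 values), most of them not among the named ones; of the 124 differences from saline 61 did. Without VTA 2 day array 1, and likewise without both wide arrays, 10 against 2 days in VTA gave -0.012 for Grik1 and -0.048 for Gria1, Gabra4 in VTA against SN after 2 days gave 0.084, and Gria1 over both regions for 10 against 2 days gave -0.053 (-0.013 with array weights). At the other end of leaving out 1 array, these 4 values were 0.68, 0.64, -0.59 and 0.29. With the most variable probe set per gene, Gabrg3 in VTA gave 0.072 for 10 days against saline and 0.70 for 10 against 2 days, and VTA against SN gave 0.19 for Gabra3 after 2 days and 0.0014 for Gabra4 after 10 days. With 3 arrays per group and centred values, differences under the intervals given could not be resolved, and signals near background could not be set aside.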
